A study of Bos taurus and Sus scrofa with 6 samples.

Results

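Cancer-testis antigen genes are described here in the germ cells of prepubertal cattle and pig testes. The 6 genes PRAME, CT47B1, FMR1NB, PAGE2B, PAGE4 and TKTL1 were taken by their symbols from the gene table of each species, and they had been selected on their levels in germ cells against other cells in earlier results of these data, so these levels are a description and were not tested. The cattle table lists 19994 genes, among them 5 of the 6 symbols (PRAME on 2 rows, PAGE2B on none), and the pig table lists 22694 genes, among them 4 of the 6 (neither CT47B1 nor FMR1NB).

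To profile the testis before puberty, testes of Holstein cattle aged 4.5 months and of mixed breed pigs aged 3 months were removed by castration, dissociated with enzymes, and about 8000 live cells of each sample were captured in droplets for single-cell RNA sequencing, in which each RNA molecule carries a unique molecular identifier (UMI). There were 3 libraries of each species, which by the study's methods came from 3 different males, all of total testicular cells with no sorting and no treatment. Libraries 2 and 3 of each species carry the same testis number in their titles and library 1 carries another. Errors and p-values measure the spread between these libraries, but those of edgeR also draw on a dispersion shared over all genes. In the meiosis contrast, tested on 2 libraries a class, they rest largely on that shared dispersion. An alternative fit of the pig meiosis contrast, described below, rests on it almost alone. Because all cattle were of 1 breed and age and all pigs of another, species, age and breed cannot be told apart.

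Cancer-testis antigens are proteins made mainly by the germ cells of the testis, and in some cases the placenta, whose genes are silent in most other tissues and are switched on again in many tumours, where the immune system can recognise them. Many of these genes lie on the X chromosome in multicopy families, and methylation of CG dinucleotides in the promoter is a known means of keeping them silent in somatic cells. In the prepubertal testis, the germ cells are spermatogonia and the first cells to enter meiosis, and they lie in seminiferous cords among Sertoli cells, with Leydig cells, peritubular myoid cells, vessels and immune cells around the cords.

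The 6 genes encode unlike proteins. PRAME is a leucine-rich repeat protein that serves as a substrate receptor of a ubiquitin ligase and can repress retinoic acid receptor signalling. PAGE2B and PAGE4 belong to the PAGE family of small acidic proteins that lack a fixed fold, CT47B1 belongs to the CT47 family, whose function is not well known, FMR1NB is a membrane protein encoded beside FMR1, and TKTL1 is a transketolase-like protein related to the enzymes of the pentose phosphate pathway. Promoter windows of RefSeq's pig annotation (Sscrofa11.1, the build of the pig files), from 250 bases before to 50 bases after the annotated start, are shown for 3 of the 4 genes listed in pig because CG content is the sequence feature named above, and the capitals mark CG dinucleotides.
TKTL1: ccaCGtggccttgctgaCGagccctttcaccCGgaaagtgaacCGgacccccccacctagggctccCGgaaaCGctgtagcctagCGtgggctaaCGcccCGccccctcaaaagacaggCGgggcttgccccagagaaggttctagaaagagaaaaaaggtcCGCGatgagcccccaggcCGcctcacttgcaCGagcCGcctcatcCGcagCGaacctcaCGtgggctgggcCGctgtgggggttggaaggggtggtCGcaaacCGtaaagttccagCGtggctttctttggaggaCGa
PAGE4: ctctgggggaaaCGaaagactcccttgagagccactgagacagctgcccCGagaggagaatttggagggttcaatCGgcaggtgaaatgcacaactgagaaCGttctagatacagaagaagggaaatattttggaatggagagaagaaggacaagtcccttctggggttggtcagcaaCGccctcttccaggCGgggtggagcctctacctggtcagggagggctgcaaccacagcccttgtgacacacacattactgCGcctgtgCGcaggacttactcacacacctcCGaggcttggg
PRAME: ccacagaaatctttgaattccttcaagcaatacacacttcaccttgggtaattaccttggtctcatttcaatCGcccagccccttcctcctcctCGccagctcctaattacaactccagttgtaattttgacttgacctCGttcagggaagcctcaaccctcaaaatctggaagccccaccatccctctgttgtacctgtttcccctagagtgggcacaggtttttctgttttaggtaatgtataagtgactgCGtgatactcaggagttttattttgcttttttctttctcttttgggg
The TKTL1 window (chrX:124839822-124840121, plus strand) held 23 CG dinucleotides at 63.3% GC. The PAGE4 window (chrX:43489309-43489608, plus strand) held 9 at 55.0% GC, and its locus was matched to PAGE4 by the product name alone. The PRAME window (chr14:48906806-48907105, minus strand) held 4 at 44.7% GC. Over 19278 promoter windows of the same length the median was 16 CG dinucleotides, and 64.6%, 34.0% and 16.5% of windows held fewer than those of TKTL1, PAGE4 and PRAME. The letters GGGCGG, read on either strand, stood in the TKTL1 window and in 50.8% of all windows.

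Total UMIs were 5805223, 27409347 and 53325608 in cattle 1 to 3 and 6245189, 40099873 and 33500750 in pig 1 to 3. After calling cells and leaving out likely doublets, 17482 cattle cells and 9206 pig cells remained, of which 517 cattle cells (82, 217 and 218 in the 3 libraries) and 1562 pig cells (645, 218 and 699) fell in clusters named germ-like from marker genes. The summed level of the germ cell markers (DDX4, UCHL1 and others, with DAZL in cattle only) was 1627 to 2312 CPM (UMIs scaled to a total of 1000000 in each sum) in cattle germ-like cells against 57.4 to 74.4 CPM in the other named cells, and 866 to 1238 against 16.5 to 48.5 CPM in pig. Much of each sum was UCHL1, at 1591, 885 and 1052 CPM in germ-like cells of cattle 1 to 3 and 594.5, 578 and 417 CPM in those of pig 1 to 3. NANOS2 was at 0 in every germ-like sum of both species. Sertoli cell markers summed to 107 to 262 CPM in cattle germ-like cells (1250 to 1964 in other named cells) and to 69.7 to 313 CPM in pig germ-like cells (809 to 3288 in other named cells). Leydig markers summed to 520 to 5258 CPM in cattle germ-like cells (7090 to 54400 in other named cells) and 114 to 877 CPM in pig (1363 to 15740). Myoid markers summed to 344 to 908 CPM (5411 to 7859) and 101 to 297 CPM (628 to 3410). Endothelial markers summed to 34.5 to 61.2 CPM in cattle germ-like cells and 21.2 to 55.2 CPM in other named cells, with 4 of the 7 (VWF, TEK, KDR and FLT1) higher in germ-like cells of every cattle library. The part of these other cell types in the results below was not tested.

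In cattle, each of the 5 genes was higher in germ-like cells than in the other named cells of all 3 libraries. The genes had been chosen on this contrast, and 23.2% of all genes tested were called higher in germ-like cells by edgeR at an adjusted p under 0.05. PRAME (ENSBTAG00000047085) stood at 614, 455 and 580 CPM in germ-like cells of cattle 1, 2 and 3, and at 4.63, 2.38 and 4.46 CPM in the other named cells. Its means of 550 ± 83.7 and 3.82 ± 1.25 CPM (SD, n = 3 libraries) differed 144-fold. The other PRAME row (ENSBTAG00000046669) received 2 UMIs in germ-like cells, both in cattle 3, and none in other cells, which is under the limit of 0.563 CPM that 3 counts would give over all germ-like cells.

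CT47B1 (ENSBTAG00000038497) stood at 473, 672 and 517 CPM in cattle germ-like cells and at 2.65, 1.98 and 2.38 CPM in other named cells, a 237-fold difference of means (554 ± 105 against 2.34 ± 0.334 CPM, SD, n = 3 libraries). FMR1NB (ENSBTAG00000034045) stood at 542, 354 and 345 CPM against 6.94, 6.08 and 3.08 CPM, a 77.1-fold difference (414 ± 111 against 5.37 ± 2.03 CPM). Cattle 1 had the highest FMR1NB level of the 3 libraries, and the lowest CT47B1 level.

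TKTL1 (ENSBTAG00000020127) stood at 694, 478 and 560 CPM in cattle germ-like cells and at 8.27, 4.49 and 5.46 CPM in other named cells, a 95.0-fold difference of means (577 ± 109 against 6.07 ± 1.96 CPM, SD, n = 3 libraries). PAGE4 (ENSBTAG00000037728) stood at 44.9, 122 and 85.5 CPM against 1.98, 4.49 and 3.08 CPM, a 26.4-fold difference (84.0 ± 38.4 against 3.18 ± 1.26 CPM). It was the gene with the widest spread between cattle libraries relative to its mean, and cattle 1, the shallowest library, gave 13 PAGE4 UMIs in its 82 germ-like cells. These folds compare shares of all UMIs, and a scaling by trimmed means (TMM) would divide each cattle fold by 2.21 and each pig fold by 1.26, which leaves every gene higher in germ-like cells.

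**Figure D1:**
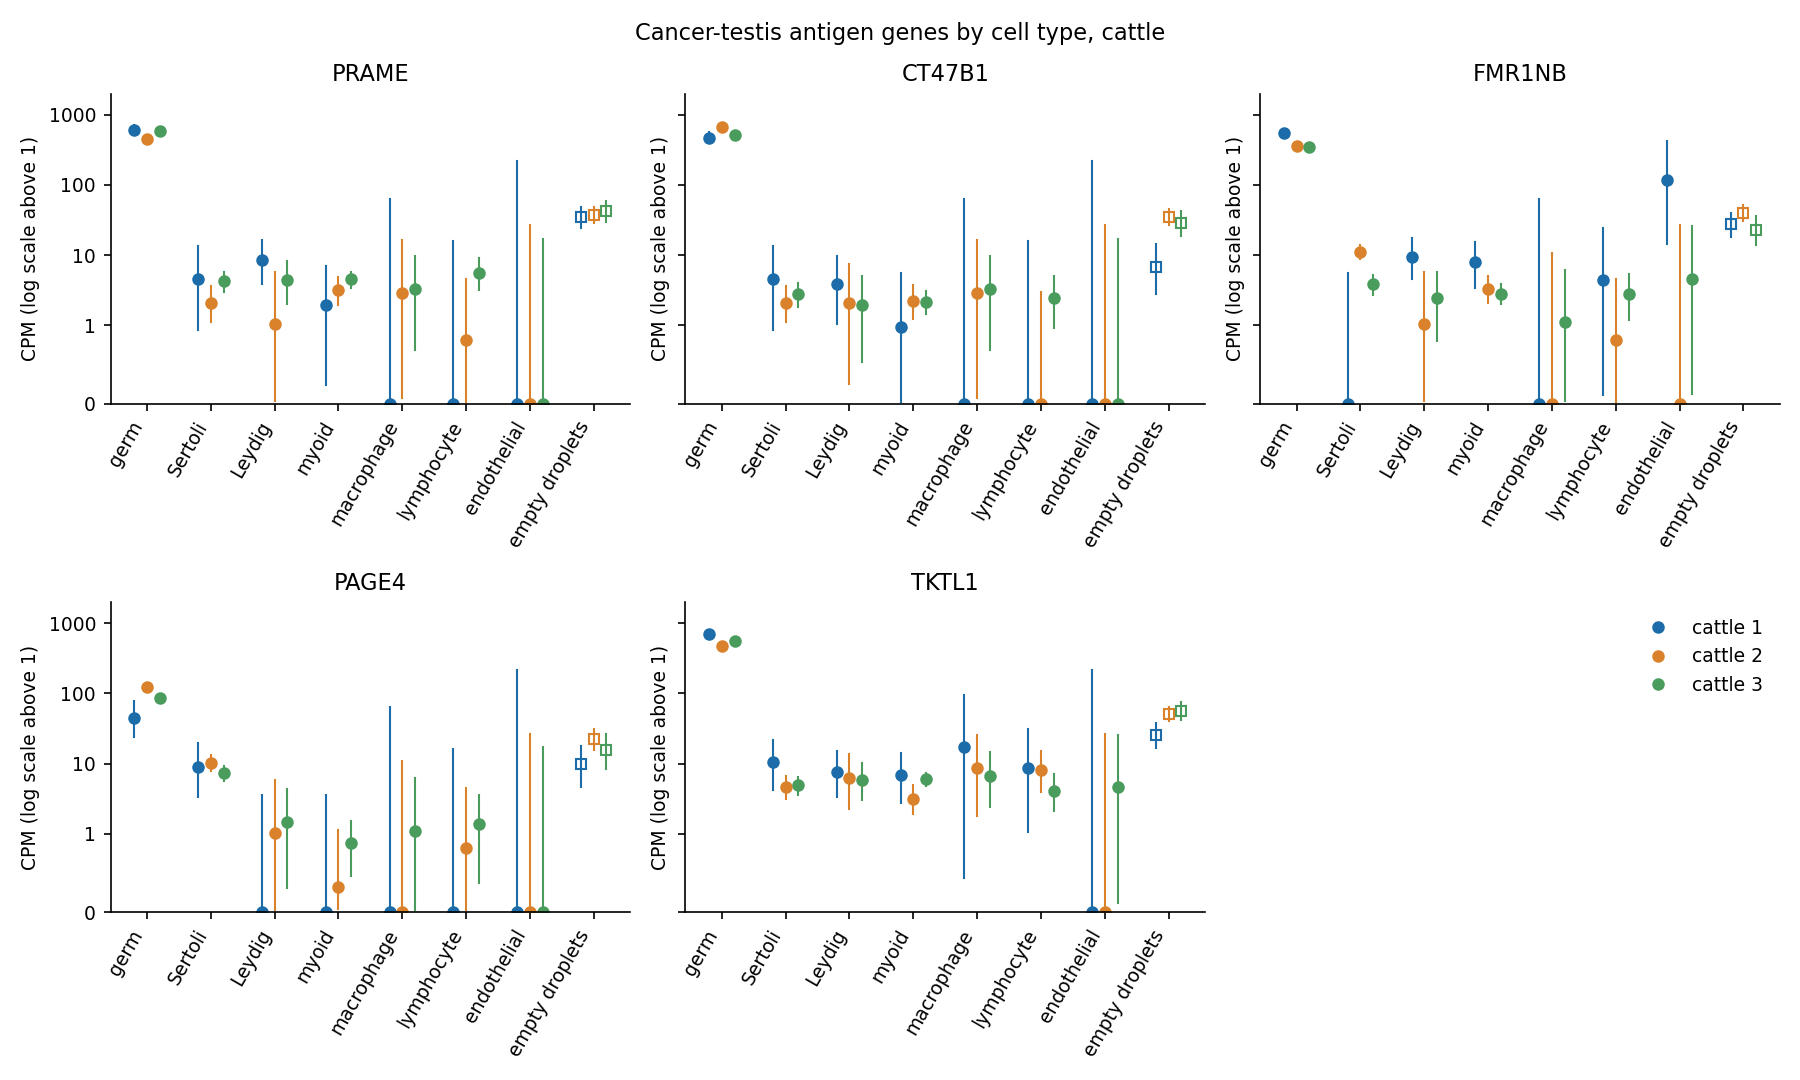
Levels of PRAME, CT47B1, FMR1NB, PAGE4 and TKTL1 by cell type in 3 cattle libraries, in CPM on an axis that is logarithmic above 1 and linear below, with bars for 95% Poisson intervals (counting error only) and open squares for barcodes of at most 50 UMIs, taken as empty droplets. Germ-like cells stand above every other cell type for each gene, and the empty droplets lie between the germ-like cells and most somatic types.

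In pig, PAGE2B, PAGE4 and TKTL1 were higher in germ-like cells of all 3 libraries, and PRAME was not detectable. The choice had used this contrast too, and 17.2% of all pig genes tested were called higher by edgeR at an adjusted p under 0.05. PAGE2B (ENSSSCG00000012346) stood at 328, 285 and 228 CPM in the germ-like cells of pig 1, 2 and 3 and at 18.6, 2.25 and 14.5 CPM in the other named cells. Its means of 281 ± 50.04 and 11.8 ± 8.49 CPM (SD, n = 3 libraries) differed 23.8-fold, and the fold within a library ran from 15.8 in pig 3 to 127 in pig 2. With the unnamed cells counted as other cells, the highest fold within a library was 34.8 in place of 127.

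PAGE4 (ENSSSCG00000012303) stood at 55.2, 66.6 and 23.9 CPM in pig germ-like cells and at 0.951, 0.774 and 1.90 CPM in other named cells, a 40.2-fold difference of means (48.6 ± 22.1 against 1.21 ± 0.607 CPM, SD, n = 3 libraries). TKTL1 (ENSSSCG00000029443) stood at 28.3, 20.7 and 27.3 CPM against 2.38, 0.633 and 1.90 CPM, a 15.6-fold difference (25.5 ± 4.13 against 1.64 ± 0.902 CPM). Pig 2 had the lowest level in other named cells for all 3 genes. Counting unnamed cells as other cells, the highest fold within a library was 57.9 for PAGE4 and 14.1 for TKTL1, in place of 86.1 and 32.8. PRAME (ENSSSCG00000036408) received 1 UMI in the 1562 pig germ-like cells and 3 UMIs in the 6954 other named cells, and 3 counts would correspond to 0.176 and 0.121 CPM, so no difference could be seen at this depth. Reads shared with near-identical copies of PRAME, PAGE or CT47 genes could have been dropped or split in the counting, so the levels of these families are uncertain in both species.

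**Figure D2:**
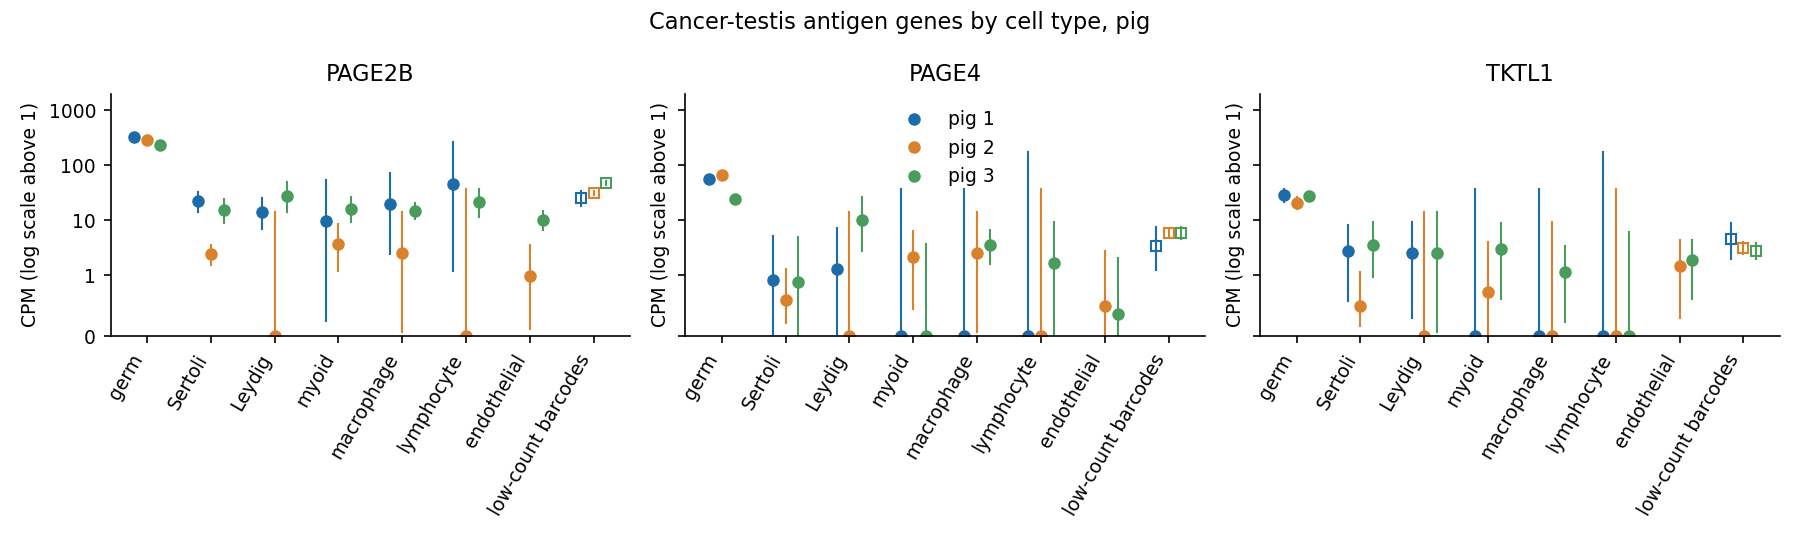
Levels of PAGE2B, PAGE4 and TKTL1 by cell type in 3 pig libraries, in CPM on an axis that is logarithmic above 1 and linear below, with bars for 95% Poisson intervals and open squares for barcodes from 500 UMIs to the cell minimum. All 3 genes stand highest in germ-like cells.

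The low levels in somatic cells were set beside RNA free in the suspension. In cattle barcodes of at most 50 UMIs, PRAME stood at 34.5, 37.2 and 42.1 CPM, CT47B1 at 6.90, 35.3 and 28.9 CPM and TKTL1 at 25.6, 51.2 and 56.6 CPM in the 3 libraries. FMR1NB stood there at 27.6, 40.2 and 22.9 CPM and PAGE4 at 9.85, 22.5 and 15.7 CPM. Each of these values was above that of the same gene in the other named cells of the same library. The pig tables hold no barcode under 500 UMIs, and in pig barcodes between 500 UMIs and the cell minimum PAGE2B stood at 25.0, 31.4 and 47.7 CPM, PAGE4 at 3.40, 5.93 and 5.89 CPM and TKTL1 at 4.54, 3.11 and 2.78 CPM, again above the other named cells of the same library. Those pig barcodes may include shallow cells. The part of free RNA in the levels of other named cells was not tested.

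PAGE4 was higher in cattle Sertoli-like cells than in the other somatic cells, a pattern picked after its values were seen and so not tested. In Sertoli-like cells it received 6, 64 and 69 UMIs, or 9.10 CPM (95% Poisson interval 3.34 to 19.8), 10.4 CPM (7.99 to 13.2) and 7.34 CPM (5.71 to 9.29). In the remaining named somatic cells it received 0, 4 and 20 UMIs, or 0, 0.446 and 1.02 CPM. The Sertoli-like level was thus above the rest of the somatic cells in each library, and below the germ-like level in each. It was also below the PAGE4 level of the empty droplets of the same library, and the part of free RNA in the difference between somatic types was not tested. CT47B1 was also above the rest in each library by smaller amounts, at 4.55, 2.11 and 2.77 CPM against 2.11, 1.90 and 2.20 CPM. TKTL1 was above the rest in cattle 1 and 2 and below it in cattle 3, at 10.6, 4.70 and 4.89 CPM against 7.61, 4.35 and 5.73 CPM. PRAME was at 4.55, 2.11 and 4.26 CPM in Sertoli-like cells and 4.65, 2.57 and 4.55 CPM in the remaining somatic cells. Pooled over libraries, Sertoli-like cells held 139 PAGE4 UMIs and 56 PRAME UMIs, whereas germ-like cells held 491 and 2938. FMR1NB was uneven between libraries, at 0, 11.2 and 3.83 CPM in Sertoli-like cells against 8.88, 2.57 and 2.71 CPM in the remaining somatic cells. In pig Sertoli-like cells, PAGE4 averaged 0.804 ± 0.179 CPM (SD, n = 3 libraries, 8 UMIs in all).

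Within the germ-like cells, the share of cells with a UMI was compared after each cell was thinned to 1000 UMIs, because germ-like cells were deeper (library medians of 3529.5, 6180 and 16908 UMIs in cattle and 2822, 15118 and 14830 in pig) than other named cells (779, 1654 and 4367, and 841, 3828 and 4805). After thinning, 48.0%, 32.3% and 38.5% of cattle germ-like cells held a PRAME UMI (80.5%, 84.3% and 96.8% before thinning), against 0.797%, 0.250% and 0.408% of other named cells (0.390%, 0.461% and 2.14% before). Thinning kept 75, 217 and 218 cattle and 593, 218 and 699 pig germ-like cells, and 1004, 7599 and 5644 cattle and 531, 3219 and 1431 pig other named cells, and left out 7 germ-like cells of cattle 1, 52 of pig 1, and 2332 and 1773 other named cells of these shallow libraries and 214 of cattle 2. CT47B1 was found in 34.7%, 43.8% and 39.0% of thinned germ-like cells (68.3%, 83.9% and 95.9% before). TKTL1 was found in 49.3%, 40.6% and 43.6% (81.7%, 88.5% and 98.2% before) and FMR1NB in 26.7%, 26.7% and 24.8% (70.7%, 71.9% and 91.7% before). PAGE4 was again the uneven gene, in 1.33%, 15.7% and 5.05% of thinned cells (14.6%, 41.9% and 50.9% before), and the first of these shares rests on 1 cell of 75.

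UMIs of several of the cattle genes were often present in the same germ-like cell. Detection shares as high as those above give such cells without any link between the genes, and a link was not tested. UMIs of at least 2 of the 5 genes were present in 53.3%, 53.5% and 46.8% of thinned germ-like cells (91.5%, 96.3% and 99.5% before thinning), and in 0.0996%, 0% and 0.0354% of thinned other named cells. None of the 5 was seen in 12%, 11.5% and 15.6% of thinned germ-like cells, which fell to 3.66%, 0.922% and 0.459% with all UMIs counted. In pig, PAGE2B was found in 28.2%, 26.1% and 21.3% of thinned germ-like cells (58.1%, 88.5% and 89.4% before) against 3.01%, 0.404% and 1.47% of thinned other named cells. PAGE4 was found in 8.43%, 8.26% and 2.72% (12.6%, 36.2% and 17.2% before) and TKTL1 in 3.04%, 2.75% and 1.72% (8.68%, 27.5% and 32.6% before). In pig, where 3 genes were detected in place of 5, UMIs of at least 2 of them were present in 5.40%, 5.05% and 1.14% of thinned germ-like cells (13.6%, 48.2% and 41.3% before).

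PAGE4 was concentrated in 1 of the 5 pig germ-like clusters. The 6 genes and the rest of the cancer-testis list had been left out of the genes used for clustering, but this cluster was singled out after the values were seen, so no test is given. The cluster (number 14, 206 cells) held 119, 51 and 36 cells of the 3 libraries and stood at 348, 295 and 312 CPM of PAGE4, against 16.6, 24.2 and 14.2 CPM in the remaining germ-like cells. It made up 18.4%, 23.4% and 5.15% of the germ-like cells and gave 73.5% (exact 95% interval 64.3 to 81.3), 69.3% (62.9 to 75.2) and 42.6% (36.7 to 48.7) of their PAGE4 UMIs. The level ran from 295 to 348 CPM over the 3 libraries, whereas the share of cells in this cluster was lowest in pig 3, the library with the lowest PAGE4 level over all germ-like cells. Pig 3 also had the lowest level outside the cluster, and the part of the cluster in the pig 3 level was not tested. PIWIL4, a piRNA pathway Argonaute known from early spermatogonia, stood in cluster 14 at 83.8, 230 and 182 CPM and was among the 10 leading genes of the cluster, as was ELAVL2.

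PAGE2B and TKTL1 were spread over the 5 pig clusters. PAGE2B in cluster 14 stood at 503, 436 and 312 CPM, and it reached its highest level in cluster 8, at 945 CPM in pig 1 and 600 CPM in pig 3 (39 and 55 cells), against 299 and 212 CPM in the remaining germ-like cells of those libraries. Cluster 8 was led by TEX101, a surface protein of male germ cells, at 2352 and 2028 CPM, and held SYCP1, a synaptonemal complex protein, at 709 and 707 CPM. In clusters 6, 15 and 16, with sums of at least 20 cells, PAGE2B lay between 180 and 273 CPM. TKTL1 was lowest in cluster 8, at 0 CPM in pig 1, where 0 UMIs were counted, and 10.5 CPM in pig 3 (5 UMIs), and highest in cluster 16, at 44.3 and 35.1 CPM in pig 1 and pig 3. Cluster 6 came to 97.0% from pig 1 and cluster 16 to 74.4% from pig 3, so that cluster and library cannot be fully told apart for these clusters.

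**Figure D3:**
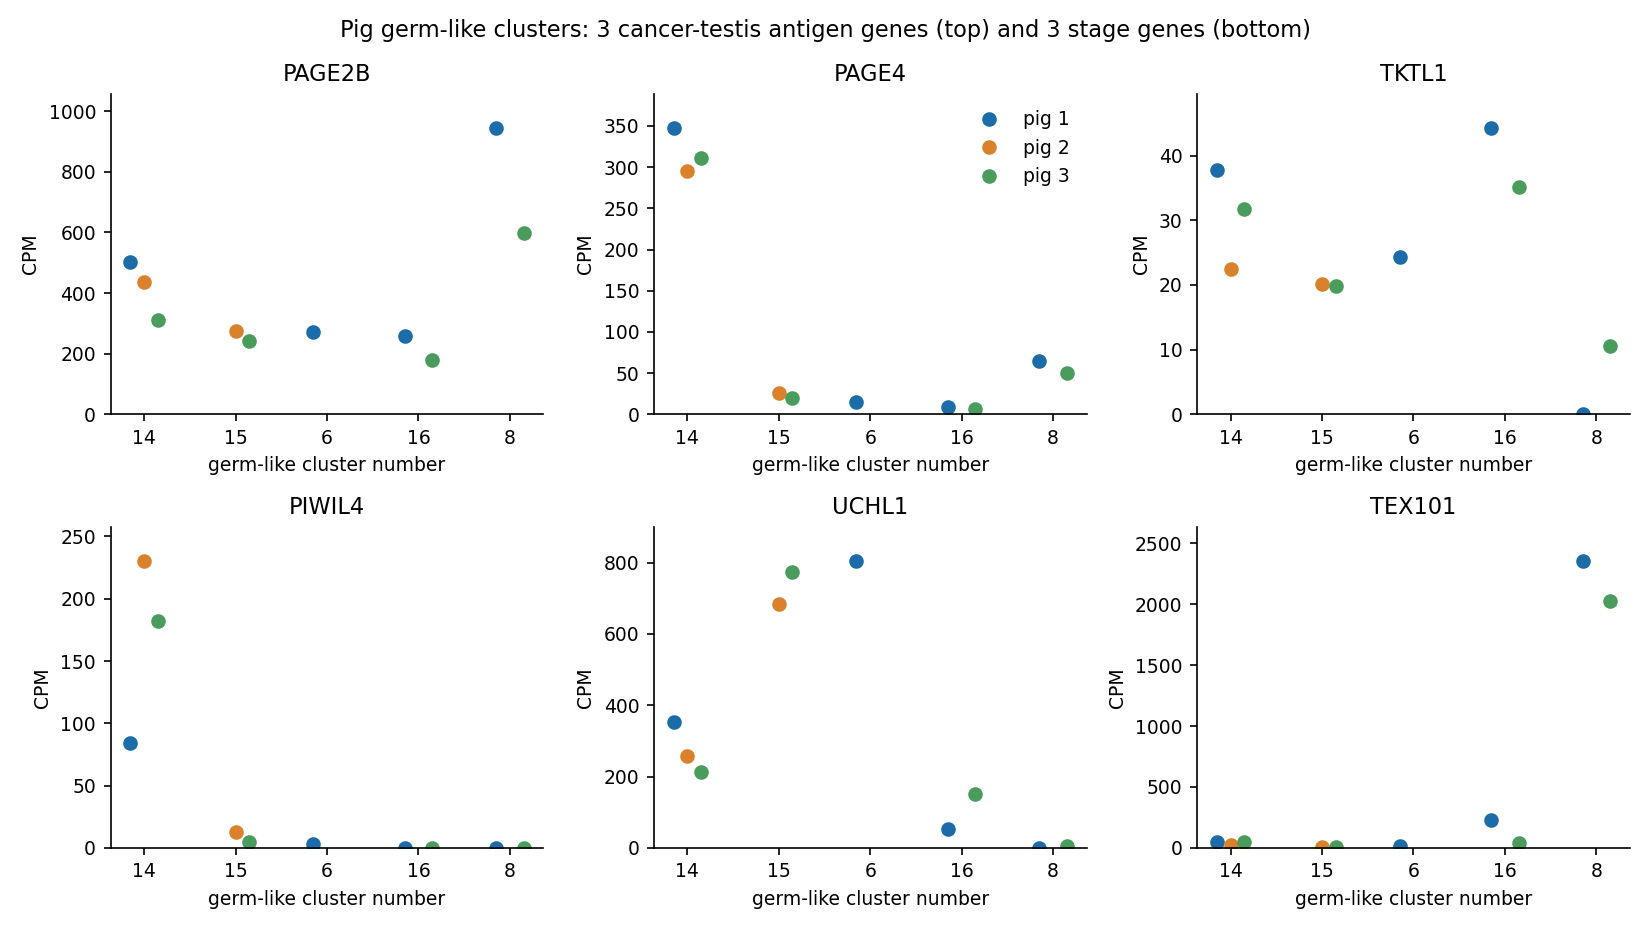
Levels in CPM of PAGE2B, PAGE4 and TKTL1 (top) and of PIWIL4, UCHL1 and TEX101 (bottom) in the 5 pig germ-like clusters, each point being the sum of at least 20 cells of 1 library. PAGE4 is between 295 and 348 CPM in cluster 14 of the 3 pigs and at most 64.45 CPM in the other clusters, and PAGE2B is highest in cluster 8, where TEX101 is highest.

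Germ-like cells with at least 2 UMIs of 12 meiosis genes (SYCP1, SYCP3, TEX101, DMC1 and others) after thinning were compared with the other germ-like cells of the same library, a contrast that the choice of the 6 genes had not used. MSH4, 1 of the 12 genes, was listed in cattle only. Libraries with at least 20 cells in both classes entered the test, which left out cattle 1 (8 cells) and pig 2 (18 cells). SYCP1 itself stood at 337 and 284 CPM with meiosis UMIs against 216 and 236 CPM without in cattle 2 and 3. In pig 1 and 3 it stood at 283 and 296 against 27.8 and 52.2 CPM. SYCE3 was further apart in cattle 3, at 200 against 35.8 CPM, but not in cattle 2, at 104 against 76.2 CPM. SYCP1 and SYCE3 are both among the genes that set the classes. Because the cattle classes lay close in SYCP1, the cattle contrast cannot decide whether the genes changed at entry into meiosis. In cattle 2 and 3, PRAME stood at 407 and 482 CPM in cells with meiosis UMIs and at 466 and 611 CPM in cells without. CT47B1 stood at 744 and 453 against 656 and 537 CPM, and FMR1NB at 445 and 312 against 335 and 356 CPM. PRAME was lower in the cells with meiosis UMIs of both libraries and higher in the 8 such cells of cattle 1 (707 against 601 CPM), while CT47B1 and FMR1NB moved in opposite directions in the 2 libraries.

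In the quasi-likelihood test of edgeR, adjusted by Benjamini-Hochberg over 11423 genes, 0 of the 5 cattle genes passed an adjusted p of 0.05 (0 at an unadjusted p under 0.05, and 0 in DESeq2), where 0.552% of all genes were called higher and 0% lower. The log2 differences were -0.32 ± 0.249 for PRAME, -0.07 ± 0.243 for CT47B1, 0.06 ± 0.237 for FMR1NB, -0.03 ± 0.281 for PAGE4 and -0.09 ± 0.229 for TKTL1 (SE, 2 libraries a class, adjusted p = 0.9993 for each). These errors do not show that the classes were alike, and the signs of PAGE4, FMR1NB and TKTL1 turned in at least 1 other setting.

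In pig 1 and 3, PAGE2B stood at 559 and 350 CPM in cells with meiosis UMIs and at 286 and 210 CPM in cells without, and in pig 2, outside the test, at 423 and 273 CPM. It was thus higher in the cells with meiosis UMIs of all 3 pigs. The log2 difference was 0.71 ± 0.285 with an adjusted p of 0.4575 in the edgeR quasi-likelihood test, adjusted by Benjamini-Hochberg over 13321 genes (unadjusted p = 0.02856), so it did not pass. With the library as a replicate block it was 0.70 ± 0.130 with an edgeR adjusted p of 3.415e-06 and passed, on 2 libraries a class. The p-value of that fit rests on a dispersion shared over all genes, and hardly on the spread of PAGE2B between libraries. That fit called far more genes, 927 higher and 884 lower, in place of 97 and 12 without the block. With pig 2 let in by a minimum of 10 cells, chosen after the data were seen and with no block, it was 0.65 ± 0.273 with an edgeR adjusted p of 0.6822. Cells with meiosis UMIs had median depths of 2531.5 and 10428 UMIs in pig 1 and 3, against 3280 and 16357 in cells without.

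PAGE4 stood at 53.8 and 40.7 against 55.7 and 21.4 CPM in pig 1 and 3 (log2 difference 0.14 ± 0.489, edgeR adjusted p = 0.9672), and TKTL1 at 28.7 and 33.5 against 29.0 and 26.4 CPM (0.07 ± 0.402, edgeR adjusted p = 0.9812). In all, 0 of the 3 detected pig genes passed (1 at an unadjusted p under 0.05, and 0 in DESeq2), where 0.728% of all genes were called higher and 0.0901% lower.

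**Figure D4:**
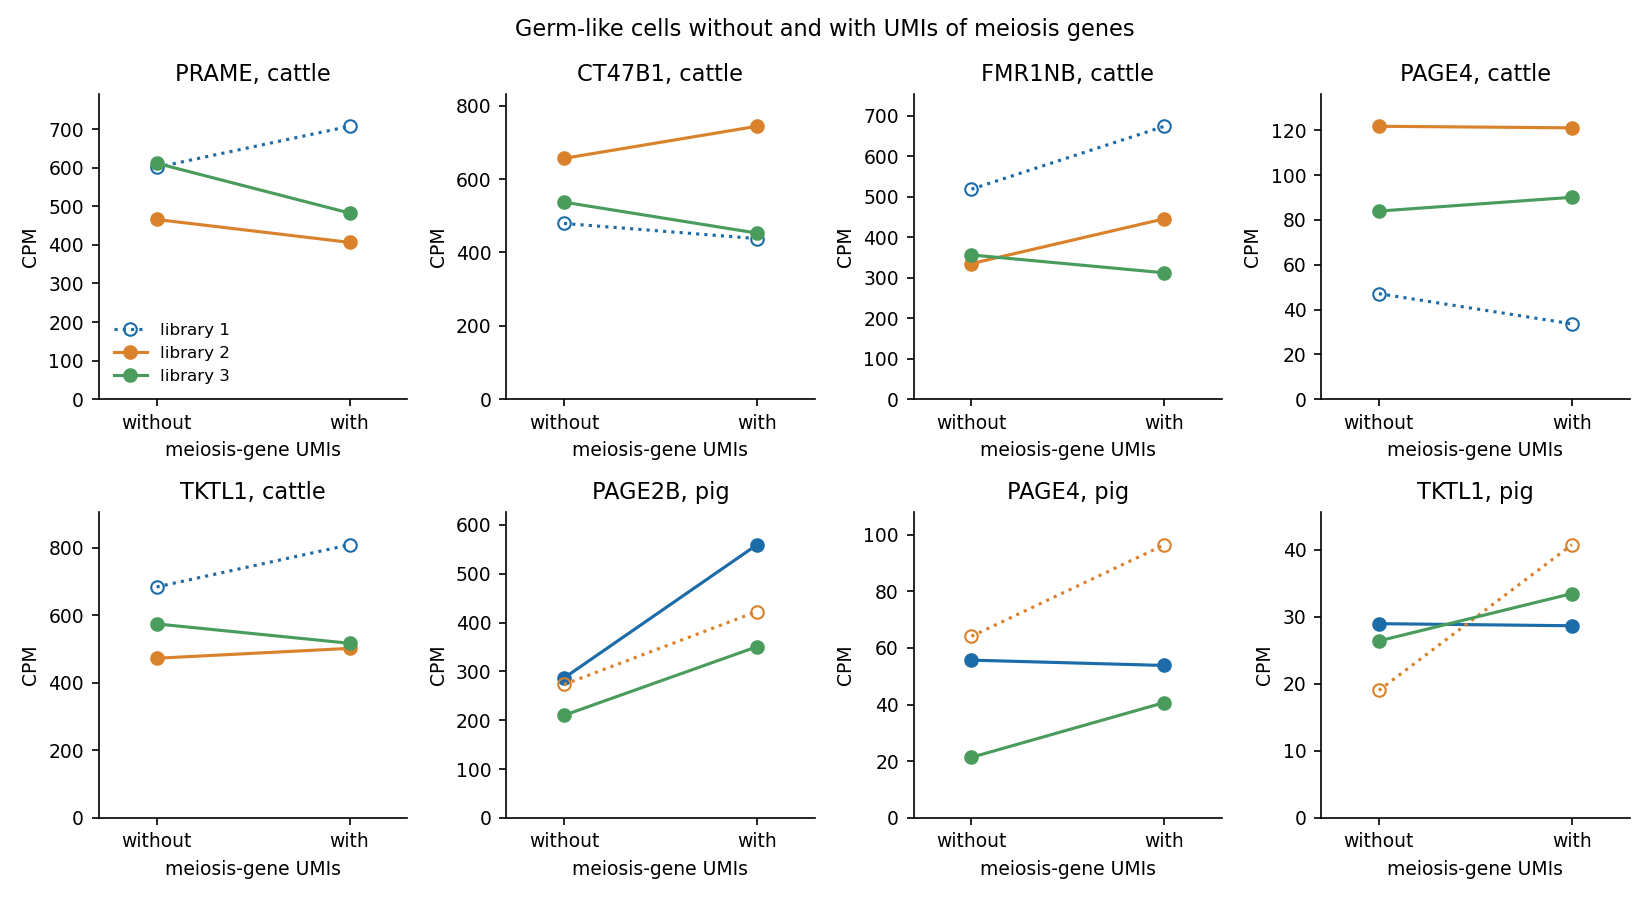
Levels in CPM of the 5 cattle genes and 3 pig genes in germ-like cells without and with at least 2 UMIs of 12 meiosis genes (MSH4 in cattle only), a line joining the 2 classes of 1 library and open points with dotted lines marking libraries with under 20 cells in a class, which were not tested. PAGE2B is higher with meiosis UMIs in all 3 pigs, and none of the 5 cattle genes moves the same way in all 3 cattle libraries.

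The 6 genes were then set beside 158 other symbols of the cancer-testis class. The listed genes had been left out of the genes used for clustering, and the p-values take the cell classes as given. The list was chosen with earlier results of these data known and holds many germ cell genes. Higher levels in cells named from germ markers are therefore largely given by the make-up of the list. In cattle, 102 of these genes were listed and 81 had enough counts for edgeR's quasi-likelihood test of germ-like against other named cells, of which 56 were higher and 5 lower at an adjusted p under 0.05 and 20 did not pass (69.1% higher, where 23.2% of all genes tested were higher and 26.7% lower). The median log2 difference of the list was 3.39, against -0.16 over all genes. Without cattle 3, the deepest library, 39 genes were called in place of 61. Calls over all genes fell too, from 3286 higher and 3791 lower of 14174 to 1518 and 2046 of 12536.

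Among the cattle genes that rose were SYCP1 and SYCE1, which build the synaptonemal complex, at log2 differences of 6.67 and 5.87. The RNA helicase gene DDX43 and the LY6 family gene LY6K rose by 5.99 and 6.03. MORC1, needed in mice to silence transposons, rose by 5.86, NUTM1, known as a fusion partner in NUT carcinoma, by 6.11, and the X-linked MAGEB16 and SSX5 by 5.57 and 5.82. TEKT5, a tektin of the sperm tail, had 217 UMIs in germ-like cells against 3 in other named cells, a ratio of 639 (95% counting interval 216 to 3124). CT55 had 38 UMIs against 0, which is 112-fold above a floor of 3 counts over all other named cells. That fold leaves out the counting error of the 38 UMIs. MAGEB4 had 49 UMIs against 3 (ratio 144, interval 46.6 to 724) and SPAG17, of the cilium's central apparatus, 45 against 2 (ratio 199, interval 52.0 to 1692).

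The 5 cattle genes that fell were FATE1, PLAC1, TAF7L, GPATCH2 and LIPI. FATE1, a protein of the outer mitochondrial membrane, stood at 58.7, 25.2 and 28.9 CPM in germ-like cells and 413, 554 and 387 CPM in other named cells (log2 difference -4.86 ± 0.356, edgeR adjusted p = 1.773e-05). PLAC1, known from the placenta, fell by 4.12 and TAF7L, a paralog of a general transcription factor subunit, by 2.54 on the log2 scale. GPATCH2 stood at 32.8 ± 1.99 against 30.4 ± 7.80 CPM (SD, n = 3 libraries), and its fall of 1.03 became a difference of 0.09 when libraries were scaled by total UMIs alone. LIPI had 0 UMIs against 26, and 26 UMIs over the other named cells is itself under the level that 3 counts give in germ-like cells, so no fold is given. The calls of GPATCH2 and LIPI were lost without cattle 2 (edgeR adjusted p of 0.2008 and 0.1267) or cattle 3 (0.1682 and 0.2027), and that of TAF7L without cattle 2 (0.05132).

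In pig, 99 of the other genes were listed and 82 tested, where germ-like cells were higher for 47 and lower for 5, and 30 did not pass (57.3% higher, where 17.2% of all genes tested were higher and 19.5% lower). The median log2 difference of the list was 2.21, against -0.07 over all genes. Without pig 2, 22 genes were called in place of 52. Calls over all genes fell too, from 2609 higher and 2964 lower of 15174 to 601 and 963 of 14444. With germ cells taken as cells with UMIs of at least 2 germ markers, 24 were called (19 higher), where 1372 of all 15216 genes were higher and 2234 lower. That gate held 349 of 645, 202 of 218 and 631 of 699 germ-like cells, leaving the rest among the other cells. Under the same gate the fold of means was 5.73 for PAGE2B, 5.21 for PAGE4 and 6.75 for TKTL1 in pig, and 145 for CT47B1, 98.1 for PRAME, 64.0 for TKTL1, 60.4 for FMR1NB and 22.8 for PAGE4 in cattle, each still higher in all 3 libraries.

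Among the pig genes that rose were DDX43 at a log2 difference of 5.78, MAEL of the germline piRNA pathway at 5.33, the Tudor domain kinase gene STK31 at 4.91, and TEX15, which acts in meiosis and transposon silencing, at 4.93. PIWIL2, a piRNA-binding Argonaute, had 79 UMIs in germ-like cells against 2 (ratio 57.2, 95% counting interval 15.3 to 481), and SLCO6A1, of the organic anion transporter family, had the same counts. MORC1 had 77 UMIs against 1 (ratio 112, interval 19.4 to 4463), CTCFL, the germline paralog of CTCF, 57 against 1 (ratio 82.6, interval 14.2 to 3319), and NUTM1 55 against 2 (ratio 39.8, interval 10.5 to 337). TDRD6, a Tudor protein of germ granules, had 45 UMIs against 1 (ratio 65.2, interval 11.12 to 2632). The protease gene TMPRSS12 had 41 UMIs against 0, 19.8-fold above the same floor of 3 counts. The protamine gene PRM2 had 12 against 0, 5.80-fold above that floor. Both folds leave out the counting error of the germ-like UMIs. Without pig 2, edgeR adjusted p-values were 0.05719 for TMPRSS12, 0.05942 for MORC1 and NUTM1, 0.07172 for TDRD6, 0.05352 for PIWIL2 and 0.1294 for PRM2, and NUTM1 was also lost without pig 1 (0.05501). The log2 differences without pig 2 were still 7.23 for TMPRSS12, 4.75 for MORC1, 4.25 for NUTM1, 6.27 for TDRD6, 4.42 for PIWIL2 and 5.35 for PRM2. Each gene was higher in germ-like cells of all 3 pigs.

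The pig genes that fell were again FATE1, PLAC1 and TAF7L, with FBXO39 and SPAG9. FATE1 stood at 85.5, 68.4 and 31.4 CPM in germ-like cells and 647, 915 and 267 CPM in other named cells (log2 difference -3.66 ± 0.525, edgeR adjusted p = 0.001813). PLAC1 fell by 4.25, TAF7L by 3.46 and the F-box gene FBXO39 by 3.80 on the log2 scale. FBXO39 in other named cells ran from 14.3 and 14.9 CPM in pig 1 and 2 to 213 CPM in pig 3. SPAG9, a scaffold of JNK signalling, fell by 0.88 (edgeR adjusted p = 0.03494), a call lost under library size scaling and without any one of the 3 pigs. Without pig 2 the calls of TAF7L, PLAC1 and FBXO39 were lost too (edgeR adjusted p of 0.05576, 0.0569 and 0.07514).

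Split by chromosome as known in human, the X-linked part of the list had 11 genes tested in each species, of which 5 rose and 3 fell in cattle, and 3 rose and 3 fell in pig. The remaining part had 70 genes tested in cattle, with 51 higher and 2 lower, and 71 in pig, with 44 higher and 2 lower. The median log2 difference was 1.49 in cattle and 0.03 in pig for the X-linked part, and 3.69 and 2.38 for the remaining part, and the difference between the parts was not tested. In the meiosis contrast, 3 of 72 listed genes outside the meiosis list were higher in cattle cells with meiosis UMIs (0.552% of all genes) and 8 of 71 in pig (0.728% of all genes), among them, in pig, LY6K (4.08 ± 0.265, edgeR adjusted p = 1.986e-05) and CRISP2 (3.36 ± 0.609, edgeR adjusted p = 0.02535). No listed gene was called lower. HSPB9 was called in both species (log2 differences of 7.64 and 2.46). In cattle it rests on 1 library, with germ-like levels of 0, 0 and 123.2 CPM in cattle 1, 2 and 3.

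**Figure D5:**
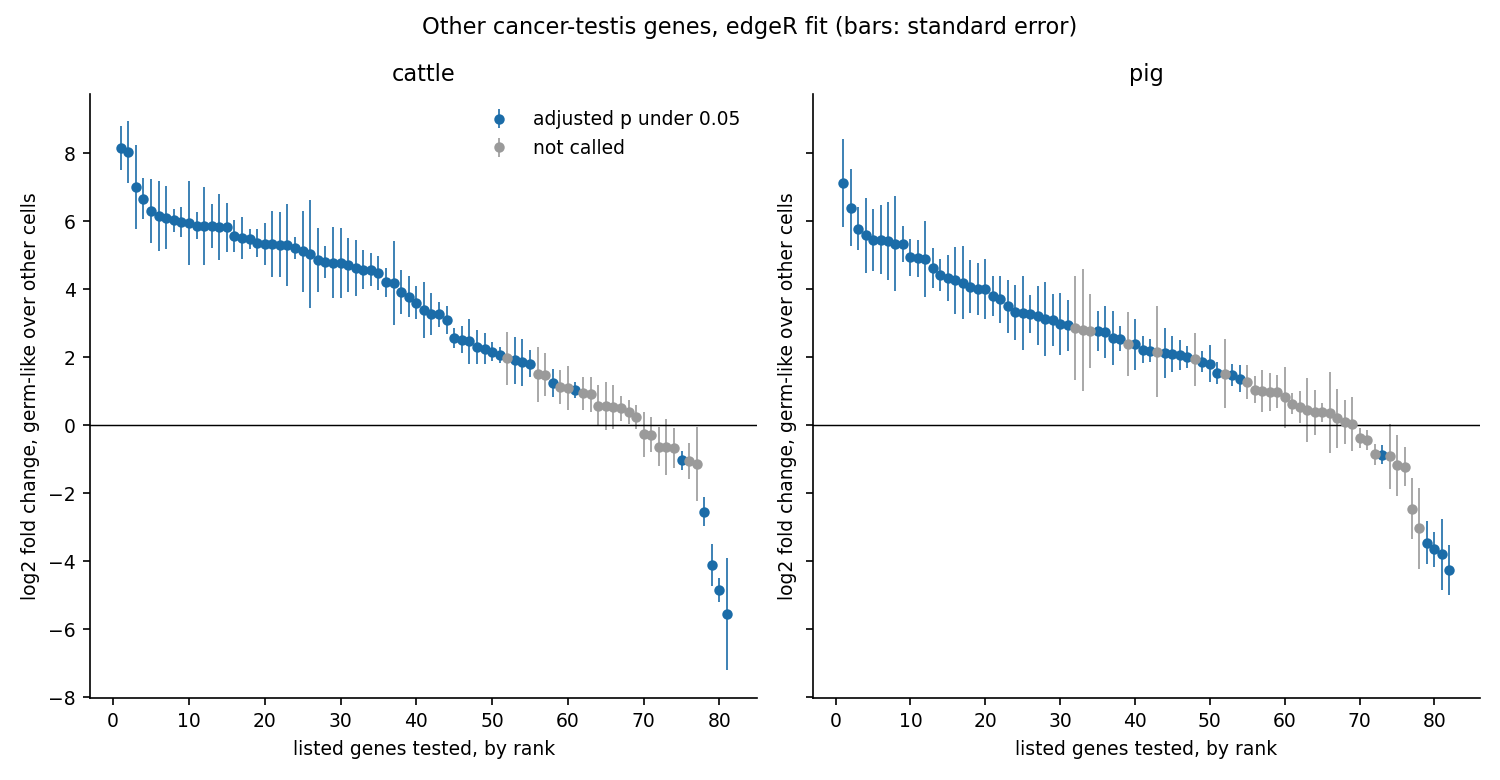
Log2 fold changes of the other cancer-testis genes between germ-like and other named cells, ranked by size, for the 81 genes tested in cattle and the 82 in pig, with bars for the standard error and colours for genes called or not called at an edgeR adjusted p of 0.05. Most of the called genes lie above 0, and 5 in each species lie below.

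To compare the species, the germ-like difference of cattle was tested against that of pig as an interaction of species and cell class over 12751 shared symbols, where 6.27% were called higher in cattle and 9.18% higher in pig. Of 81 listed genes tested, 6 were called higher in cattle (CABYR, TEKT5, TMEFF2, CCDC110, CT55 and ADAM2) and 2 higher in pig (LIPI and TEX15). The count of 8 was 18 with the library as a replicate block, 20 under library size scaling, and 3, 4 and 5 without cattle 2, cattle 3 and pig 1. Over all genes, 800 were called higher in cattle and 1171 higher in pig. These were 1342 and 2011 with the block, and 225 and 397 without cattle 2. The members could not enter this test, since their germ-like difference had chosen them, and side by side TKTL1 stood at 478 to 694 CPM in cattle and 20.7 to 28.3 CPM in pig germ-like cells, and PAGE4 at 44.9 to 122 and 23.9 to 66.6 CPM. These levels come from different genomes, annotations and 3′ ends, and they were not tested.

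The genes most like each of the 6 in level were found by Pearson's r of log2(CPM + 1) over 21 cattle and 20 pig sums of cell type and library. These sums share libraries and contrast germ-like cells with many somatic types, so r is a description. In cattle, PRAME and CT47B1 were each other's nearest genes (r = 0.988), followed for PRAME by PHF7 (0.975) and TH (0.973) and for CT47B1 by DRC1 (0.985) and SYNGR4 (0.974). FMR1NB was nearest to DAZL (0.931), a germ cell RNA-binding protein, ACP1 (0.915) and MCM10 (0.913), TKTL1 to AMZ2 (0.934), MAEL (0.934) and GTSF1 (0.926), and PAGE4 to SULT4A1 (0.978), ERICH2 (0.976) and NETO2 (0.972). Among the cattle sums, FMR1NB reached 118 CPM in an endothelial-like sum, with 3 FMR1NB UMIs over all 134 cells of that type. The part of this sum in the r of FMR1NB was not tested. In pig, PAGE2B was nearest to ENSSSCG00000037771 (0.928), ENSSSCG00000028340 (0.909) and SLIRP (0.905), PAGE4 to RNF182 (0.95), TP63 (0.946) and DLGAP3 (0.942), and TKTL1 to MSMP (0.958), GNG4 (0.954) and NRN1 (0.948).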

How the data were processed

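The deposited files hold UMI counts per gene and barcode, which the authors made with Cell Ranger 2.1.0 on the genome builds ARS-UCD1.2 and Sscrofa11.1, and the values are raw counts. Cattle files hold all barcodes and pig files those of at least 500 UMIs. Cells were called here by the Cell Ranger 2 rule (the 99th percentile of the 3000 largest totals divided by 10, at least 200 genes), and the top 0.8% of Scrublet doublet scores per 1000 cells were left out, since the study removed doublets in its own analysis. No deposited cell annotation was used, so cells were clustered (scanpy 1.11.5, 2000 variable genes without the cancer-testis genes, 30 components, 15 neighbours, Leiden resolution 1) and named from at least 3 markers, found in at least 5% of cells and 2-fold higher. This naming rule was set after the clusters were seen, and names can differ from those of the study.

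UMIs were summed per library and class. Sums with at least 10 counts a gene were tested with edgeR 4.0.16 (R 4.3.3; quasi-likelihood test, TMM, Benjamini-Hochberg over all genes tested), and DESeq2 1.42.0 was an alternative. The tests were checked on simulated data. The members and lists were chosen with earlier results of these data known. Named genes are all 6 members, per species the 12 listed genes with the largest called difference in the same direction in all 3 libraries, every listed gene called lower, and the 3 genes most like each member. Both classes of a library come from the same sample, and their deviations from the class means correlated at r = 0.346, 0.283 and 0.291 in cattle and 0.391, 0.327 and 0.273 in pig, so the library served as a replicate block in an alternative. Intervals are 95% and, like the floor of 3 counts, cover counting error only. Called barcodes shared by 2 libraries were about as many as chance gives. Promoters were read from RefSeq's Sscrofa11.1. No cattle sequence or coordinate is given, and none for PAGE2B.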

Additional observations from a re-analysis of the deposited data

Results flagged for a closer look

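The difference between germ-like and other named cells itself differed between cattle and pig for 8 of 81 listed genes by the interaction test, 6 higher in cattle and 2 higher in pig, where 6.27% and 9.18% of all genes were called (edgeR, Benjamini-Hochberg adjustment, values are cattle minus pig on the log2 scale). Read against those shares, the count is not a result about the listed genes. CABYR differed by 5.64 (adjusted p = 0.003105), TEKT5 by 7.54 (0.003473), TMEFF2 by 4.92 (0.01189), CCDC110 by 5.34 (0.02457), CT55 by 4.77 (0.02726) and ADAM2 by 4.14 (0.03896). TEX15 differed by -3.26 (0.04163), with called differences of 1.85 in cattle and 4.93 in pig. LIPI differed by -9.22 (0.004144), a fitted value that rests on 0 UMIs in cattle germ-like cells and bounds nothing. Leaving out cattle 3 lost the call of ADAM2 (1.60), CCDC110 (2.52), CT55 (4.49), TMEFF2 (5.26) and TEX15 (-3.45). Leaving out cattle 2 lost the same 5, TEX15 was lost without any one pig, ADAM2 and CCDC110 were lost without pig 1 or pig 2, and CT55 without pig 1.

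Levels outside the named cells were looked at too. In pig 2, a cluster left unnamed (number 11, 318 of its cells in this library, 331 in all) because genes of another type led it held PAGE2B at 84.5 CPM, PAGE4 at 6.23 CPM and TKTL1 at 12.5 CPM, each above the level in the other named cells of pig 2. Its leading genes included UCHL1, COX8C and ELAVL2, and the marker list it matched best was that of myoid cells.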

How the results depend on the processing

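The number of the 6 genes higher in germ-like cells of every library was 5 in cattle and 3 in pig under every alternative run. Since the genes had been chosen on this contrast, that count is a description and lends no support. The count of other listed genes called ran from 39 to 65 in cattle and from 22 to 47 in pig when 1 library was left out, against 61 and 52 with all. In pig it was 24 with germ cells by UMIs of 2 germ markers and 34 with that gate and a minimum of 500 UMIs. The species difference was called for 8 listed genes, and for 20 with library size alone, 14 with DESeq2, 18 with a replicate block and 3 to 10 when 1 library was left out. In the meiosis contrast, the replicate block called 1 pig gene, PAGE2B, in place of 0, and changed no call of the cattle genes. That PAGE2B call rests on a dispersion shared over all genes. GPATCH2 turned to 0.086 with library size alone. In cattle, FMR1NB turned to -0.077 and TKTL1 to 0.024 with at least 1 meiosis UMI, and PAGE4 to 0.008 under both the replicate block and library size alone. The cause was not tested. Among single listed genes, 298 values under alternatives kept their call, 37 lost it and 1 reversed, and DESeq2 gave FBXO39 in pig no adjusted p. Of 160 mean levels of the 6 genes under alternatives, 12 moved by over 1 SD, all of them upward in other cells under the 2-marker gates. Over all genes, library size alone changed calls from 3286 higher and 3791 lower to 6255 and 1802 in cattle, from 2609 and 2964 to 3529 and 2226 in pig, and in the species difference from 800 and 1171 to 2125 and 528. Leaving out a library was not tested in the meiosis contrast, as 1 library a class leaves no residual degrees of freedom. With genes at 0 set to their bound, the list medians were 3.39 in cattle and 2.20 in pig. Depth limits PRAME in pig, PAGE4 in cattle 1 and the 2 smallest meiotic classes.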
